A study of Mus musculus with 10 samples.

Results

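The B7-family and innate checkpoint ligands are surface proteins on tumour, stromal and myeloid cells that restrain or prime T cells, natural killer cells and phagocytes. Of the 26063 genes measured, 10 were taken by symbol: Cd276, Cd274, Pdcd1lg2, Vtcn1, Cd80, Cd86, Icosl, Vsir, Cd47 and Pvr. They were followed in bulk RNA of mammary tumours from 10 female FVB/N mice, 5 of genotype 16IC/WT (16IC) and 5 of genotype EIC/WT (EIC). Doxycycline (2 mg/ml) was given to all 10 animals, and end-point tumours were frozen. The series title links a HER2 splice variant and ENPP1 to an immune cold tumour. The labels do not spell out 16IC and EIC or what drives the alleles, each library has a mouse number of its own and is called a tumour here although the labels do not say whether several tumours of a mouse were pooled, and the number after a genotype pairs nothing. Library totals were 14813940 to 16947400 counts. Epithelial markers were abundant in both genotypes, with sums of 4349 to 6245 CPM, counts scaled to library size, in 16IC and 4644 to 7112 CPM in EIC over 10 genes, of which Krt19 was at 0 in 16IC 4. Erbb2, the mouse gene of HER2, lay between 108.6 and 138.4 CPM in 16IC and between 107.0 and 157 CPM in EIC. Reads of a transgene cannot be told apart from those of the mouse gene in this table, which leaves the labelled genotypes unchecked.

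B7 ligands are immunoglobulin-superfamily proteins. CD80 and CD86 on antigen-presenting cells engage CD28, which costimulates T cells, or CTLA-4, which restrains them. PD-L1 (Cd274) and PD-L2 (Pdcd1lg2) engage the inhibitory receptor PD-1, and interferon is a strong inducer of PD-L1. B7-H3 (Cd276) and B7-H4 (Vtcn1) have no settled receptor and are carried by many carcinomas and their stroma. CD47 signals "do not eat" to macrophages through SIRPα, and PVR (CD155) is shared by the activating receptor CD226 and the inhibitory receptors TIGIT and CD96.

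Cd276 gave the clearest difference among the ligands: every 16IC tumour held less of its RNA than every EIC tumour. Cd274 did not separate the genotypes and was high in 1 16IC tumour. Of the 10 genes, 9 were abundant enough to test and Pdcd1lg2 was not. Differences are log2 of 16IC over EIC from edgeR's quasi-likelihood fit over 14915 genes with Benjamini-Hochberg adjustment, and CPM are scaled by trimmed mean of M values (TMM). edgeR called 0 of the 9 at an adjusted p below 0.05, where it called 0.0% of all genes. In simulated data edgeR recovered 13.4% of the planted 2-fold changes that it tested, so the lack of a call does not show equal levels. At an unadjusted p below 0.05 edgeR listed 2, Cd276 and Pvr, where 13.1% of all genes were listed. DESeq2 called Cd276 alone among the 10 at its adjusted p below 0.05, where it called 2.11% of all genes given an adjusted p and 1.27% as lower in 16IC. Of the 9, 2 had a log2 difference above 0 and 7 below, with a median of -0.27 against -0.02 over all genes tested, of which 52.3% lay below 0. When 1 tumour was left out the sign turned for Cd80 (without 16IC 2 or 16IC 5), Icosl (without EIC 1) and Vsir (without 16IC 1, 16IC 4 or EIC 4), and for Cd80 also with voom and quality weights.

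**Figure D1:**
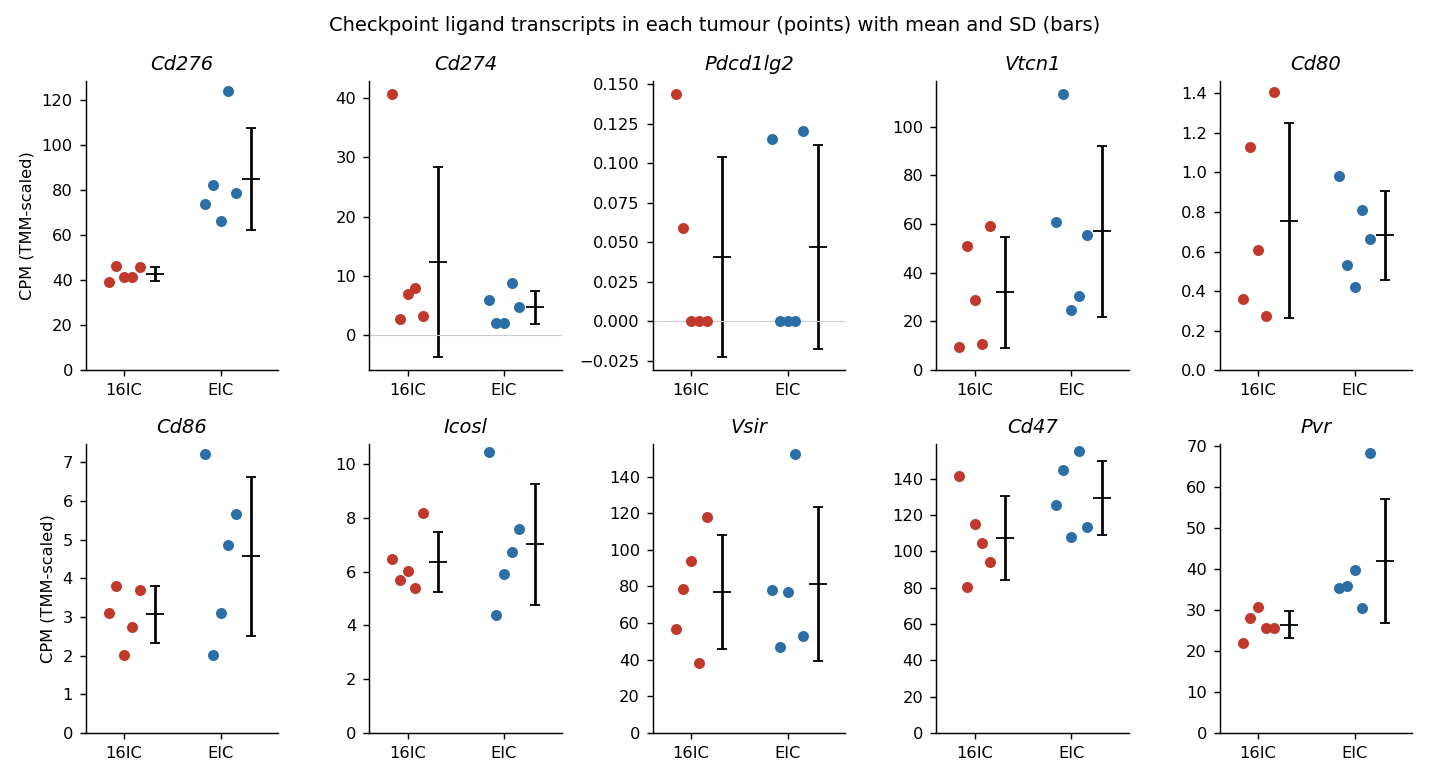
TMM-scaled CPM of the 10 ligand genes in each of 5 16IC (red) and 5 EIC (blue) tumours, with the mean and SD of each group as black bars; each panel has its own axis. Cd276 does not overlap between genotypes (39.1 to 46.3 CPM in 16IC, 66.5 to 124 CPM in EIC), and Cd274 has a single high 16IC tumour at 40.6 CPM.

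Levels of different genes were compared per length, on the authors' deposited FPKM (fragments per kilobase, scaled to depth). The order was taken from these same values, so tests between neighbours describe gaps in an order not set beforehand. Cd47 was highest with a median of 17.4 FPKM over the 10 tumours, followed by Cd276 (14.997), Vsir (14.99) and Vtcn1 (14.93), 3 neighbouring pairs whose differences were within their spread (exact paired permutation, adjusted p = 0.375, 0.613 and 0.828). Pvr followed at 4.78 FPKM, lower than Vtcn1 in 9 of 10 tumours (adjusted p = 0.00879, exact paired permutation test on log2(FPKM + 0.1), two-sided, 9 pairs). Cd274 had a median of 1.44 FPKM, below Pvr in 9 of 10 tumours (exact paired permutation, adjusted p = 0.0176), and its difference from Icosl at 1.31 FPKM did not pass (adjusted p = 0.844). Cd86 (0.911 FPKM), Cd80 (0.164 FPKM) and Pdcd1lg2 (listed at 0 in the median tumour) each lay below the gene before them in 10 of 10 tumours (exact paired permutation, adjusted p = 0.00586 for each pair). The costimulatory ligands CD80 and CD86 and the second PD-1 ligand had the lowest medians of the set over the 10 tumours. The order from Cd47 to Vtcn1 pooled both genotypes and matched neither. In 16IC the medians were 16.17 FPKM for Cd47, 15.08 for Vsir, 10.98 for Cd276 and 10.42 for Vtcn1. In EIC they were 20.95 FPKM for Cd276, 20.66 for Vtcn1, 19.95 for Cd47 and 14.9 for Vsir. The pooled Cd276 median lay above the highest 16IC tumour (12.36 FPKM) and below the lowest EIC tumour (17.63 FPKM). The order within a genotype was not tested.

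Cd276 encodes B7-H3 (ENSMUSG00000035914) and occupies 58524298 to 58555437 of chromosome 9, minus strand, in GRCm38. Its CPM was 39.1, 46.3, 41.7, 41.4 and 46.0 in 16IC 1 to 5, against 73.9, 82.2, 66.5, 124 and 78.8 in EIC 1 to 5. The 16IC tumours sat in a narrow band and all lay below the lowest EIC tumour. Groups without overlap were found in 2.59% of all genes tested, 1.17% lower and 1.42% higher in 16IC. The means were 42.9 ± 3.14 CPM in 16IC and 85.1 ± 22.7 CPM in EIC (SD, n = 5 each), so the mean in 16IC was 0.504 of that in EIC. The log2 difference was -0.99 with a standard error of 0.17 and a 95% interval from -1.37 to -0.61. By p it ranked 12 of 14915 genes in edgeR, but its adjusted p was 0.154, and the exact permutation p over the tumours was 0.00794, the smallest that 5 against 5 can give (unadjusted). DESeq2 gave an adjusted p of 3.13e-04 and called the gene in all 10 fits with 1 tumour left out (largest adjusted p 0.00521). The authors' deposited table lists a log2 fold change of -0.99 with an adjusted p of 3.13e-04. These values nearly equal those of DESeq2 here and come from the same libraries, so they are no separate evidence. The coefficient of variation between tumours was 7.33% in 16IC and 26.7% in EIC. Near its 5′ end it shares 416 of 3658 exon bases (11.4%) with Gm10657 on the other strand, which itself had 0 to 4 counts per library.

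Most tested markers of macrophages and monocytes, fibroblasts, neutrophils and dendritic cells had log2 differences below 0 beside Cd276. Of all genes tested, 52.3% lay below 0. T and natural killer cell markers (3 of 4 tested) and interferon-stimulated genes (9 of 15) lay mostly above 0. Epithelial (6 of 10 below 0) and endothelial markers (3 of 5 below 0) were mixed. In bulk tumours, fewer cells of a type and less RNA per cell cannot be told apart. Of 15 macrophage and monocyte markers, 14 had a difference below 0, and their sums ran from 499.7 to 1825 CPM in 16IC and from 721 to 1823 CPM in EIC, with no marker at 0 in any tumour. Of 8 fibroblast markers, 7 had a difference below 0, with sums of 388 to 3311 CPM in 16IC and 1710 to 6579 CPM in EIC. The myeloid and fibroblast scores (mean log2 CPM of a list) did not differ significantly (exact permutation p = 0.206 and 0.341, adjusted 0.464 and 0.512). Neutrophil genes (4 of 4 tested below 0, sums 3.10 to 19.7 CPM in 16IC and 12.4 to 78.6 CPM in EIC, Retnlg at 0 in 1 tumour) had the largest score difference of the 9 marker lists, -1.93 log2, with an exact permutation p of 0.0397 and an adjusted p over the lists of 0.357. Over the 10 tumours Cd276 correlated with the epithelial score at r = 0.60 (rho = 0.70), with the myeloid score at r = 0.51 (rho = 0.58) and with the fibroblast score at r = 0.41 (rho = 0.36), none past adjustment over 36 relations (permutation, adjusted p = 0.264, 0.291 and 0.416 for r). With each genotype's mean removed these r became 0.36, 0.33 and 0.21, and without the 2 tumours farthest from the median score 0.36, 0.25 and 0.21. With the log2 of summed CPM as the score they were 0.40, 0.36 and 0.49. The part of these cell populations in the Cd276 difference was not tested.

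**Figure D2:**
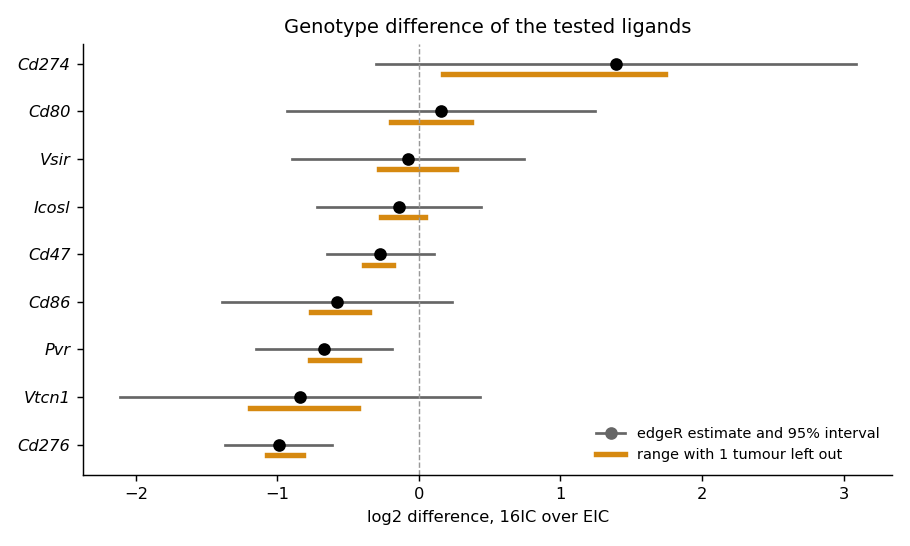
Log2 difference of 16IC over EIC for the 9 tested ligands (black points), with 95% intervals from edgeR (grey) and the range of estimates with 1 tumour left out (orange). The intervals of Cd276 (-1.37 to -0.61) and Pvr (-1.15 to -0.19) do not include 0 before adjustment, and the leave-one-out range of Cd274 (0.17 to 1.74) is the widest.

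Cd274 encodes PD-L1 (ENSMUSG00000016496) and occupies 29367455 to 29388095 of chromosome 19, plus strand. Its CPM was 40.6, 2.79, 6.92, 8.01 and 3.22 in 16IC 1 to 5, against 5.89, 2.02, 2.09, 8.74 and 4.69 in EIC 1 to 5. One 16IC tumour stood far above the other 9, whose genotypes overlapped throughout. The means were 12.3 ± 16.0 CPM in 16IC and 4.69 ± 2.82 CPM in EIC (SD, n = 5 each). The log2 difference was 1.39 with a standard error of 0.77 and a 95% interval from -0.30 to 3.09 (edgeR adjusted p = 0.449, DESeq2 adjusted p = 0.319). Without 16IC 1 it was 0.17 (edgeR adjusted p = 0.925), and voom with quality weights gave 0.47. An opposite-strand gene, AC119228.1, shares 511 of the 3622 exon bases (14.1%), and no source used here states whether the counting kept strand.

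Across tumours Cd274 followed interferon-stimulated genes. The score of 15 such genes (mean log2 CPM) was 7.02, 4.59, 5.33, 5.31 and 4.62 in 16IC 1 to 5 and 5.85, 2.90, 3.61, 6.73 and 6.07 in EIC 1 to 5, and it did not separate the genotypes (difference 0.34, exact permutation p = 0.698). The tumours with the lowest Cd274, EIC 2 and EIC 3, also had the lowest interferon scores, and 16IC 1 had the highest of both. Pearson's r was 0.85 (permutation p = 0.00124, adjusted 0.0160) and Spearman's rho 0.88 (permutation p = 0.00150, adjusted 0.0180), both adjusted over 36 relations between 9 ligands and 4 marker scores. Without 16IC 1 and EIC 2, the tumours farthest from the median score, r was 0.83, and with the genotype means removed it was 0.86 (adjusted p = 0.0218). The adjusted p without those tumours was 0.102. Cd276 had r = 0.01 with the same score (rho = -0.12, permutation adjusted p = 0.990 for r), but 0.58 without 16IC 1 and EIC 2 (permutation adjusted p = 0.410) and 0.31 with the genotype means removed (permutation adjusted p = 0.602), and whether the relations of Cd274 and Cd276 with the score differ was not tested. Cd274 did not follow the myeloid score (r = -0.23, rho = -0.21, permutation adjusted p = 0.782 for r). Interferon gamma itself (Ifng) was nearly absent, with a highest value of 0.180 CPM in any tumour.

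The genes most like Cd274 over the 10 tumours, by Pearson r among 12057 genes with a mean log2 CPM of at least 1, were Irgm1 (r = 0.98), an interferon-induced GTPase, Ube2l6 (r = 0.96), the conjugating enzyme of ISG15, and Gbp7 (r = 0.95), a guanylate-binding protein. All 10 points share their libraries between the genes compared. Irgm1 averaged 291 ± 370 CPM in 16IC and 114 ± 79.99 CPM in EIC (SD, n = 5 each), with 940.5 CPM as the highest value. Promoter letters from RefSeq (GRCm38.p6, 250 bases before the start) were searched for the core that interferon regulatory factors read, AANNGAAA on either strand, and for its tandem form (GAAA, NN, GAAA), whose matches overlap those of the core. The windows below are shown because these genes are Cd274, its neighbour or among those most like it. Each is 30 bases, 5′ to 3′ on the gene's strand, with the core or tandem matches nearest the start in capitals.
Cd274: ccgaagcctagTTTCGTTTtttcttaaact
Pdcd1lg2: cacccccgcttTTTCTTTTtaacaggaaaa
Irgm1: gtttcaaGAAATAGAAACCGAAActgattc
Gbp7: gtgtgcagTTTCAGTTTCAGTTctccatcc
These lie at chr19:29367252-29367281 (plus strand), chr19:29410873-29410902 (plus strand), chr11:48871428-48871457 (minus strand) and chr3:142530275-142530304 (plus strand). Counted to the RefSeq start, which lies upstream of the deposited start for Cd274, the first capital stands 175 bases before the start of Cd274, 35 before that of Pdcd1lg2, 30 before that of Irgm1 and 53 before that of Gbp7. Of the 8 ligand genes with a promoter entry, 3 held the core (Cd274, Pdcd1lg2 and Vtcn1) and 0 the tandem form, against 21.3% and 2.98% of 32851 promoter windows of the same length. The windows of Cd276 and Ube2l6 held neither. RefSeq starts differ from the deposited gene bounds for some ligands. The windows of Cd276, Cd80 and Cd47 lie inside the deposited gene spans, and that of Icosl lies partly inside. A match describes letters only.

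**Figure D3:**
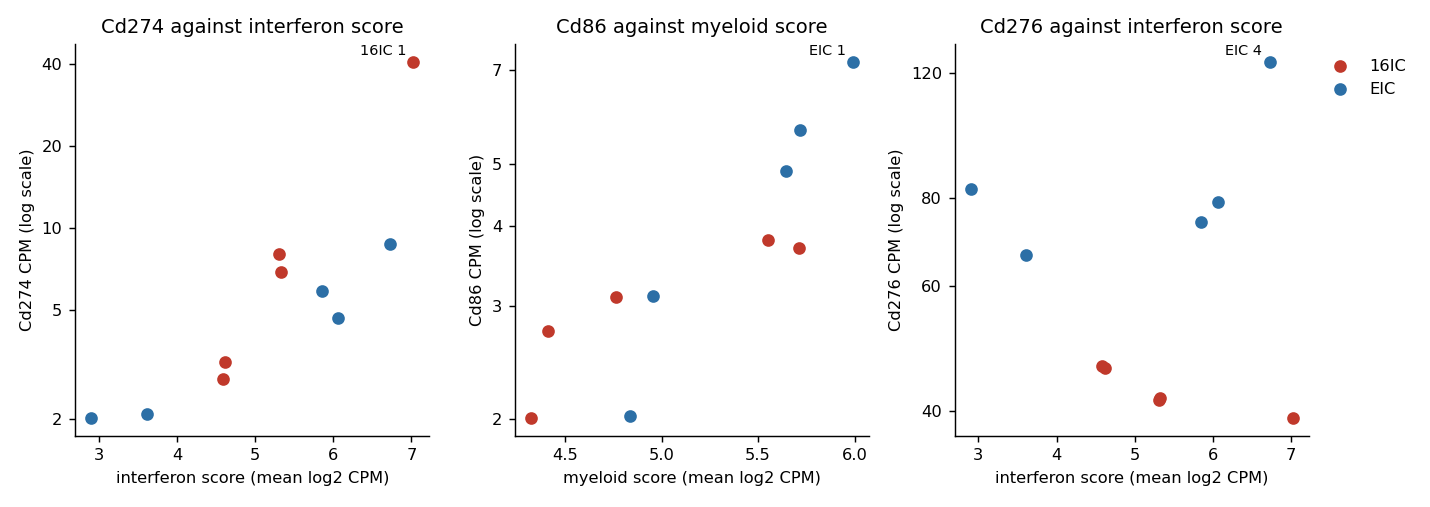
Ligand CPM (log axis) against marker scores (mean log2 CPM) in each of 5 16IC (red) and 5 EIC (blue) tumours: Cd274 against the interferon score, Cd86 against the myeloid score and Cd276 against the interferon score. Cd274 and Cd86 lie along a common trend over both genotypes (r = 0.85 and 0.88), and the 16IC and EIC points of Cd276 lie in separate ranges of CPM (r = 0.01, or 0.31 with the genotype means removed).

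Set against each other within a tumour, Cd276 outweighed Cd274 in 9 of 10 tumours. The ratio of their FPKM was 0.952, 16.4, 5.96, 5.12 and 14.2 in 16IC 1 to 5, against 12.4, 40.4, 31.5, 14.1 and 16.6 in EIC 1 to 5. In 16IC 1 the levels were 10.5 FPKM for Cd276 and 11.1 FPKM for Cd274, the only tumour where Cd274 was the higher. The ranges of the ratio overlapped between genotypes through 16IC 2 and 16IC 5. The log2 ratio of CPM averaged 2.53 ± 1.62 in 16IC and 4.33 ± 0.72 in EIC (SD, n = 5 each). The difference was -1.80 (exact permutation p = 0.0476, two-sided, unadjusted). Cd276 by itself separates the genotypes, so this p is not independent of the result for Cd276. Without 16IC 1 the difference in the log2 ratio was -1.15 (exact permutation p = 0.0952), and 7 of the 10 fits with 1 tumour left out had a p above 0.05. The genes themselves were not significantly correlated over the 10 tumours (r = -0.28, rho = -0.38, permutation p = 0.443 and 0.278, and r = -0.46 without EIC 2 and EIC 4), and r was 0.09 with the genotype means removed. The genes most like Cd276 were Ranbp9 (r = 0.95), a scaffold protein, Tnfrsf11b (r = 0.94), the decoy receptor osteoprotegerin, and Ctgf (r = 0.94), a matricellular growth factor. Ranbp9 averaged 50.1 ± 2.30 CPM in 16IC and 58.1 ± 4.60 CPM in EIC (log2 difference -0.22, edgeR adjusted p = 0.392). Tnfrsf11b averaged 2.32 ± 0.714 CPM in 16IC and 12.1 ± 6.95 CPM in EIC, and Ctgf 44.9 ± 16.0 CPM in 16IC and 158.7 ± 82.0 CPM in EIC (SD, n = 5 each). Cd276 separates the genotypes, so picking genes by r with it favours genes lower in 16IC. No r with the genotype means removed is given for them.

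**Figure D4:**
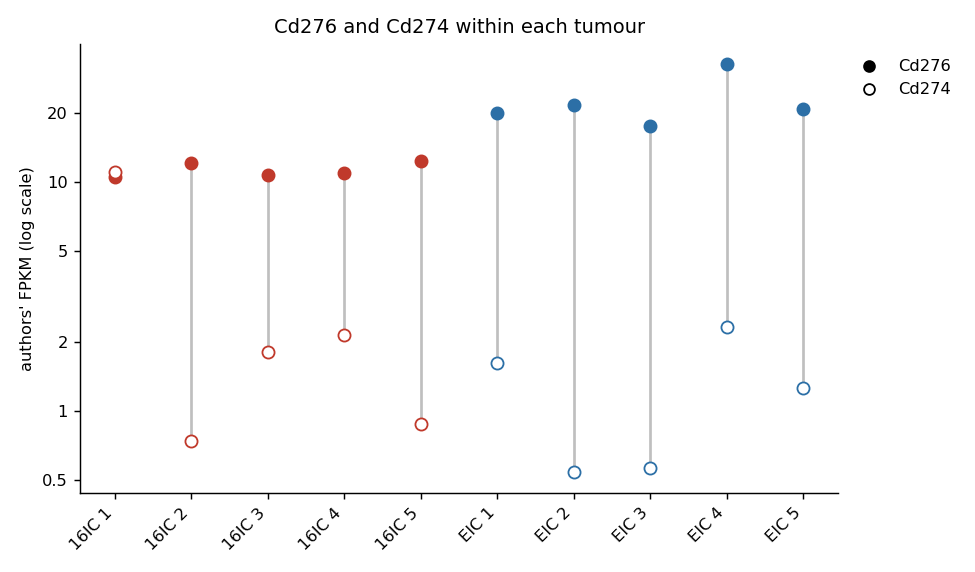
The authors' FPKM of Cd276 (filled) and Cd274 (open) joined within each tumour, 16IC tumours in red and EIC tumours in blue, on a log axis. Cd276 stands above Cd274 in 9 of 10 tumours, and in 16IC 1 the points nearly coincide (10.5 and 11.1 FPKM).

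Pdcd1lg2, the PD-L2 gene (chromosome 19, 29410919 to 29471157, plus strand), was at the limit of detection. It had 7 counts over all 10 libraries, with 3 16IC tumours and 3 EIC tumours at 0 counts. In those tumours a count of 0 allows 0.176 to 0.205 CPM (3 counts per library, counting error only). No difference could be detected at this depth.

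Pvr, the ligand of TIGIT and CD226 on chromosome 7 (minus strand, 19903578 to 19921160), came closest to Cd276. Its CPM was 21.9, 28.0, 30.7, 25.6 and 25.6 in 16IC 1 to 5, against 35.4, 35.9, 39.7, 30.6 and 68.2 in EIC 1 to 5. The groups touched only where 16IC 3 passed EIC 4 by a small margin, and scaling by total count removed that overlap. The means were 26.4 ± 3.25 CPM in 16IC and 42.0 ± 15.05 CPM in EIC (SD, n = 5 each), with a log2 difference of -0.67, a standard error of 0.22 and a 95% interval from -1.15 to -0.19. edgeR's adjusted p was 0.290 and DESeq2's 0.134, while the exact permutation p was 0.0159 (unadjusted). Without EIC 5, the highest tumour, the difference was -0.42. Pvr and Cd276 had r = 0.55 over the 10 tumours (rho = 0.70, permutation p = 0.0939 and 0.0298, adjusted 0.570 and 0.354 over 36 pairs). That r was 0.86 without EIC 2 and EIC 4 and -0.31 with the genotype means removed.

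Vtcn1 (B7-H4; chromosome 3, 100825459 to 100896922, plus strand), a ligand of epithelial tumour cells, varied more within than between genotypes. Its CPM was 9.71, 50.9, 28.9, 10.7 and 59.4 in 16IC 1 to 5, against 60.8, 114, 24.8, 30.6 and 55.7 in EIC 1 to 5. The lowest values were in 16IC 1 and 16IC 4 and the highest in EIC 2, with wide overlap. The log2 difference was -0.84 with a 95% interval from -2.11 to 0.43 (edgeR adjusted p = 0.533), and -0.43 without EIC 2. Vtcn1 and Cd274 ran in opposite directions over the tumours (r = -0.72, rho = -0.59, permutation p = 0.0163 and 0.0817, adjusted 0.294 and 0.383), and r was -0.36 without 16IC 1 and EIC 2.

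The ligands of antigen-presenting cells, Cd80, Cd86 and Icosl, were scarce and overlapped between genotypes. Cd80 (38455561 to 38496335, plus strand) and Cd86 (36603869 to 36666081, minus strand) lie on chromosome 16 and Icosl on chromosome 10 (78069302 to 78083913, plus strand). Cd86 had 3.09, 3.80, 2.00, 2.74 and 3.69 CPM in 16IC 1 to 5, against 7.22, 2.02, 3.11, 4.87 and 5.65 CPM in EIC 1 to 5. The EIC tumours spread over the wider range and held both the highest value and one close to the lowest. Its log2 difference was -0.58 with a 95% interval from -1.39 to 0.24 (edgeR adjusted p = 0.502), and -0.35 without EIC 1. Cd80 lay between 0.274 and 1.41 CPM in 16IC and between 0.418 and 0.982 CPM in EIC (log2 difference 0.15, 95% interval -0.93 to 1.24), from 4 to 24 counts per library. Icosl, the ligand of the T cell costimulator ICOS, lay between 5.41 and 8.20 CPM in 16IC and between 4.39 and 10.5 CPM in EIC (-0.14, 95% interval -0.72 to 0.44).

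Cd86 followed the macrophage and monocyte markers from tumour to tumour, with r = 0.88 and rho = 0.93 over the 10 tumours (permutation p = 5.80e-04 and 3.40e-04, adjusted 0.0160 and 0.00936). It followed the fibroblast score nearly as closely (r = 0.82, rho = 0.92, permutation adjusted p = 0.0160 and 0.00936), and with the epithelial score its rho of 0.84 passed adjustment while its r of 0.74 did not (permutation adjusted p = 0.0303 and 0.115). Without the tumours farthest from the median score, r was 0.86 for the myeloid and 0.82 for the fibroblast score, with adjusted p of 0.0900 and 0.102, and with genotype means removed r was 0.85 and 0.79. With the log2 of summed CPM as the myeloid score, r was 0.80 and did not pass (permutation adjusted p = 0.0504). Cd80 (r = 0.78, rho = 0.71) and Icosl (r = 0.71, rho = 0.72) gave lower values with the myeloid score and did not pass adjustment (permutation adjusted p = 0.0966 and 0.115 for r). With the genotype means removed, Cd80 passed with the myeloid (r = 0.85) and the epithelial score (r = 0.82). Between ligands, Cd86 and Icosl gave the highest r, 0.82 (rho = 0.70, permutation adjusted p = 0.118 for r, and r = 0.79 without 16IC 3 and EIC 1).

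**Figure D5:**
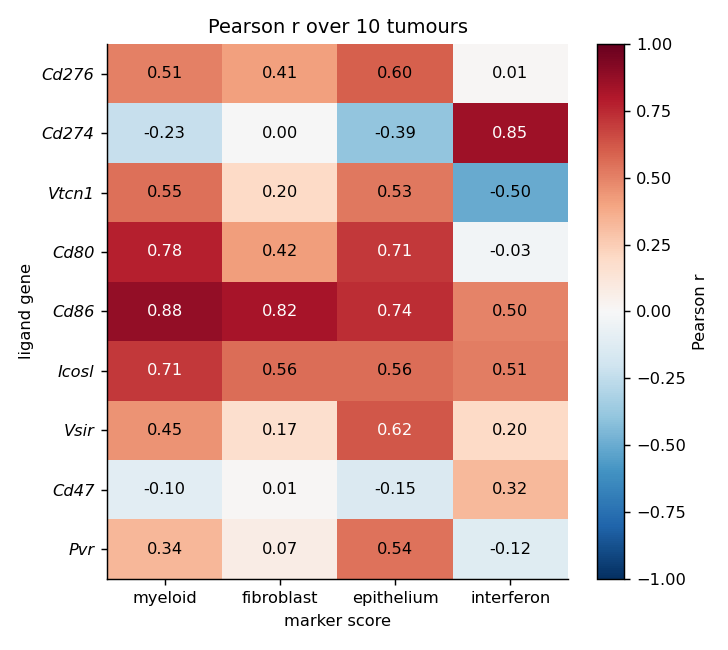
Pearson r over 10 tumours between log2 CPM of each of 9 ligand genes (down) and 4 marker scores (across), coloured from -1 (blue) to 1 (red). The relations whose r passes adjustment over all 36 are Cd86 with the myeloid (0.88) and fibroblast (0.82) scores and Cd274 with the interferon score (0.85).

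Vsir (chromosome 10, 60346851 to 60372684, plus strand) and Cd47 (chromosome 16, 49800533 to 49915010, plus strand) were detected in every tumour. Vsir encodes VISTA, an inhibitory protein of myeloid and T cells, and had 56.6, 78.8, 94.1, 38.2 and 118 CPM in 16IC 1 to 5, against 78.1, 47.0, 77.0, 152 and 52.9 CPM in EIC 1 to 5. The groups overlapped over most of their range, with a log2 difference of -0.08 and a 95% interval from -0.90 to 0.74. Vsir did not follow the myeloid score closely (r = 0.45, rho = 0.28, permutation adjusted p = 0.366 for r). Cd47 had 141, 80.3, 115, 105 and 94.4 CPM in 16IC 1 to 5, against 125, 145, 108, 155 and 113 CPM in EIC 1 to 5. The 3 lowest values were in 16IC and the highest in EIC, but 16IC 1 lay among the high EIC tumours. The log2 difference was -0.27 with a 95% interval from -0.65 to 0.11 (edgeR adjusted p = 0.496), and Cd47 varied least of the 9 genes within EIC (coefficient of variation 21.5% in 16IC and 15.7% in EIC).

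On the receiving side, receptor transcripts of T and natural killer cells were rare. None of the 7 receptor genes (Pdcd1, Ctla4, Cd28, Icos, Cd226, Tigit and Cd96) passed the count filter of edgeR, and the highest value of any in any tumour was 1.44 CPM, for Cd226 in 16IC 1. Cd226, the activating receptor of PVR, had 1.44, 0.119, 0.121, 0.958 and 0.0585 CPM in 16IC 1 to 5, against 0.115, 0, 0, 0 and 0.120 CPM in EIC 1 to 5. Its groups overlapped, with 2 16IC tumours well above the rest, and DESeq2, which gave an adjusted p for 5 of the 7, put its log2 difference at 3.50 (adjusted p = 0.139). Pdcd1, the PD-1 gene, averaged 0.411 CPM in 16IC and 0.537 CPM in EIC. The 10 T and natural killer cell markers summed to 6.41 to 22.3 CPM in 16IC and 1.07 to 20.2 CPM in EIC, with 6 of them at 0 in at least 1 tumour. The 5 B cell markers summed to 0.216 to 1.11 CPM in 16IC and 0.657 to 16.3 CPM in EIC, with 4 at 0 in at least 1 tumour. The 16.3 CPM was EIC 1 alone, and the next highest EIC tumour was EIC 2 at 1.30 CPM. The 8 dendritic cell markers summed to 12.6 to 34.7 CPM in 16IC and 9.66 to 44.3 CPM in EIC, with 5 at 0 in at least 1 tumour.

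Of 44 receptors, partner proteins, other ligands and regulators listed with the ligands, 43 were in the table and 34 were tested. edgeR called 0 of the 34 over all genes, with 2 at an unadjusted p below 0.05 (Qpctl and Igsf11), where 13.1% of all genes were listed. DESeq2 called 0 of the 40 that it gave an adjusted p, where it called 2.11% of all genes. Of the 34, 21 had a difference above 0 and 13 below, or 19 above with total-count scaling, with a median log2 difference of 0.11. On the CD47 axis, Sirpa, the receptor that reads CD47, had 132 ± 18.4 CPM in 16IC and 103 ± 19.7 CPM in EIC (log2 difference 0.35, edgeR adjusted p = 0.393). Qpctl, the enzyme that modifies CD47 for SIRPα binding, had 26.4 ± 7.04 CPM in 16IC and 19.0 ± 3.77 CPM in EIC (0.47, adjusted p = 0.377). Qpct, its secreted relative, had 8.04 ± 2.74 CPM in 16IC and 15.4 ± 11.7 CPM in EIC (-0.93, adjusted p = 0.405). Among other ligands, Igsf11, a reported partner of VISTA, had 1.51 ± 1.15 CPM in 16IC and 0.557 ± 0.295 CPM in EIC (1.41, adjusted p = 0.339). Btn1a1, a butyrophilin of milk fat, had 511 ± 632 CPM in 16IC and 139 ± 182 CPM in EIC (1.88, adjusted p = 0.504), and Cd200, an inhibitory ligand of myeloid cells, 114 ± 24.9 CPM in 16IC and 156 ± 78.4 CPM in EIC (-0.46, adjusted p = 0.542). Of 15 tested regulators of PD-L1, 10 had a difference above 0 and 5 below. Egfr had 81.8 ± 28.8 CPM in 16IC and 58.1 ± 21.1 CPM in EIC (0.49), Ifngr2, a chain of the interferon gamma receptor, 55.1 ± 3.33 CPM in 16IC and 69.3 ± 21.9 CPM in EIC (-0.33), and the kinase gene Jak1 220.03 ± 72.9 CPM in 16IC and 171 ± 45.8 CPM in EIC (0.36), with edgeR adjusted p of 0.496, 0.497 and 0.550. Single tumours moved these differences by over 1.5 times: without 16IC 1, Btn1a1 was at 0.81, Igsf11 at 0.84 and Egfr at 0.31, and without 16IC 5, Jak1 was at 0.19. Without EIC 1, Btn1a1 was at 2.89, without EIC 2, Cd200 was at -0.16, without EIC 3, Qpct was at -0.38, without EIC 4, Sirpa was at 0.23, and without EIC 5, Ifngr2 was at -0.20.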

How the data were processed

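RNA of 10 tumours was extracted and made into libraries with Qiagen RNeasy and NEBNext Ultra II kits, per the labels' protocols. The tools named are STAR, HTSeq, Trimmomatic, limma and edgeR, and the build GRCm38 (mm10), per the submitters' processing notes. No source used here gives versions, annotation release or strand setting. The authors deposited raw counts, which the tests use. They also deposited normalized counts, a signal equal to counts divided by 1 factor per library, and FPKM values, used to set genes side by side. Their table also holds deposited p-values and log2 fold changes (16IC over EIC), made with a tool that no source used here names. For the ligands these values nearly equal those of the DESeq2 fit here. Both had 356 genes at an adjusted p below 0.05.

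Groups follow the genotype labels. Genes passing filterByExpr (minimum count 10) were tested with edgeR 4.0.16 in R 4.3.3 (TMM, robust quasi-likelihood fit, genotype as the only term, threshold 0.05). DESeq2 1.42.0 and limma 3.58.1 served as alternatives. Permutation tests are exact (252 arrangements of 5 against 5, 1024 sign flips) or use 100000 resamples for correlations, all two-sided. Log2 CPM carry a prior count of 2. Each library has its own mouse number, so p-values reflect variation among animals. The fit was tested on simulated data with 100 planted changes of 2-fold and 100 of 4-fold. Of the planted genes that it tested, edgeR recovered 13.4% of the 2-fold and 63.2% of the 4-fold changes in the planted direction, with 3 false calls. DESeq2 recovered 37% and 83.8% of those it gave an adjusted p, counted in either direction. Its false calls were not counted, so the tools cannot be ranked by these shares. The median biological coefficient of variation was 33.6%.

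The ligands and lists were chosen with earlier results of these data known. Named partner genes are those called by either tool or without overlap, otherwise the 3 with the smallest p in each of the 4 classes. Genes most like Cd276 or Cd274 are the 3 with the highest r that have a symbol other than a predicted-gene name. Positions of 9 of the 10 ligands match GENCODE M21.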

Additional observations from a re-analysis of the deposited data

Results flagged for a closer look

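In 38 groups of 5 tumours (the 9 tested ligands, the named partner genes and the log2 ratio of Cd276 to Cd274, in each genotype), 6 held a tumour whose gap to its nearest neighbour exceeded 0.71 of the group's range. Chance flags about 1 in 20 groups of normally distributed values. The CPM were not on a log scale here, so that rate may not hold for them. Cd274 reached 40.6 CPM in 16IC 1, which was also the tumour with the highest interferon score. Igsf11 was highest in the same tumour, at 3.52 CPM. Cd276 reached 124 CPM in EIC 4, and the difference between genotypes without that tumour was -0.82 on the log2 scale. Pvr reached 68.2 CPM in EIC 5. Within 16IC, Qpct was highest in 16IC 5, at 12.8 CPM. Within EIC, Sirpa was lowest in EIC 4, at 68.5 CPM.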

How the results depend on the processing

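The log2 difference of Cd276 was -0.99 in DESeq2 and stayed between -1.07 and -0.82 with 1 tumour left out in edgeR and between -1.07 and -0.81 in DESeq2, which called it each time (these DESeq2 fits were added after seeing the data: -0.96, -1.01, -0.97, -0.98 and -1.02 without 16IC 1 to 5, and -1.04, -1.004, -1.07, -0.81 and -1.01 without EIC 1 to 5). In edgeR the adjusted p of Cd276 was 0.102 to 0.450 with 1 tumour left out, and voom with quality weights gave 0.111. Neither called it. edgeR called no gene, but 1 without EIC 1 and 2 without EIC 2, and DESeq2 called 356, of which 1 is a ligand. Ligands without overlap numbered 2, Cd276 and Pvr, when scaled by total count, and 1 to 2 with 1 tumour left out. The difference in the log2 ratio of Cd276 to Cd274 ran from -2.17 to -1.15 with 1 tumour left out. Relations between ligands and scores past adjustment numbered 3, but 2 with log2 of summed CPM (Cd86 with the myeloid score was lost), 5 with genotype means removed and 0 without the tumours farthest from the median, where 8 tumours remain. Signs turned for log2 differences near 0: with 1 tumour left out Cd80 ran from -0.20 to 0.36 in edgeR and was -0.026 and -0.20 in DESeq2 without 16IC 2 and 16IC 5, Icosl ran from -0.27 to 0.045 in edgeR and was 0.048 in DESeq2 without EIC 1, and Vsir ran from -0.29 to 0.26 in edgeR and was 0.010, 0.093 and 0.27 in DESeq2 without 16IC 1, 16IC 4 and EIC 4, and Cd80 was -0.22 with voom. Signs also turned for weak correlations: Cd276 with the interferon score gave -0.026 with summed CPM and -0.016 with total count scaling but 0.31 with genotype means removed and 0.58 without the farthest tumours, Cd274 with the epithelial score 0.34 without the farthest tumours, and Cd274 with the fibroblast score 0.15 without them and 0.14 with genotype means removed. The cause was not tested. No paired analysis was possible because the labels give no replicate numbers shared between genotypes. The number of neighbours in the level order that differ, 5 of 9, held under every alternative run. Cd80 and Pdcd1lg2, with few counts, limit what the depth can show.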
